A study of Mus musculus with 2 samples.

Results

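The genes of cell cycle entry and arrest examined here were Mki67, Top2a, Pcna, Ccnd1, Ccnd2, Ccnd3, Cdkn1a, Cdkn1b, Cdkn1c and Cdk4, which were taken by symbol and made up 10 of the 27998 genes listed. Single cells of the murine retinal pigment epithelium (RPE), the pigmented monolayer behind the photoreceptors, came from 2 male C57BL/6J mice, R1 and R2, at postnatal day 36, with no treatment or genetic change. RPE sheets were released with trypsin from the peeled eyecups, the 2 eyes of an animal being combined, and viable single cells were sorted and sequenced as unique molecular identifiers (UMIs), each standing for 1 captured mRNA 3' end. Each mouse was therefore 1 library, and cells were not treated as replicates. Cells were divided by the share of UMIs taken by Ttr, the transthyretin transcript that is abundant in RPE. High-Ttr cells had at least 5% and numbered 2613 in R1 and 2828 in R2, while low-Ttr cells had under 3% and numbered 58 in R1 and 19 in R2. The question was whether either group held cycling cells.

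Cells that leave quiescence raise D-type cyclins, which bind Cdk4 or its relatives and release E2F factors from the retinoblastoma proteins. Inhibitors of the Cip/Kip family, encoded by Cdkn1a (p21), Cdkn1b (p27) and Cdkn1c (p57), hold cyclin-dependent kinases back. Pcna, the sliding clamp of DNA polymerase, accumulates in S phase, whereas Mki67, which encodes the Ki-67 protein of mitotic chromosomes, and Top2a, a topoisomerase that untangles replicated DNA, peak in G2 and mitosis. The adult RPE is known as a largely postmitotic tissue.

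Promoters are shown for Mki67 and Top2a, which were all but absent from these cells, for Cdk1, the mitotic kinase gene that was detected without them, and for Pcna, the S-phase member. Each sequence runs from 250 bases before to 50 bases after the RefSeq start site on GRCm38.p6. Capitals mark 2 motifs of cell-cycle promoters on either strand, the CHR element (searched as TTTGAA and TTCGAA) and the CCAAT box (searched as CCAAT), and 1 E2F element (searched as TTTCCCGC, TTTCGCGC, TTTGCCGC and TTTGGCGC), with no overlap between the marked motifs.
Mki67 (chr7:135716330-135716629, minus strand): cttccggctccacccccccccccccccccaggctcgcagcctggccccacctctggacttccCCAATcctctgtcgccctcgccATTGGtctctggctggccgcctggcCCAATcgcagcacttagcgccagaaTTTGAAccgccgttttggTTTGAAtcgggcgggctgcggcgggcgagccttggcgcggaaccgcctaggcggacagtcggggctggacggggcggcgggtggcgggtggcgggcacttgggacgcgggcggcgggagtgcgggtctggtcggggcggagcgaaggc
Top2a (chr11:99024140-99024439, minus strand): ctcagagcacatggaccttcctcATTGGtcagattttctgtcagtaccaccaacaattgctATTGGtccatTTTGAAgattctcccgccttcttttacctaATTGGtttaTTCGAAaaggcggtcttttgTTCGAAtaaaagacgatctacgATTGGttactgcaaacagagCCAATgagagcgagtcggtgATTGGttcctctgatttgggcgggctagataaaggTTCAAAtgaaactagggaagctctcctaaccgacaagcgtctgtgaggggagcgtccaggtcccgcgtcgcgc
Cdk1 (chr10:69352863-69353162, minus strand): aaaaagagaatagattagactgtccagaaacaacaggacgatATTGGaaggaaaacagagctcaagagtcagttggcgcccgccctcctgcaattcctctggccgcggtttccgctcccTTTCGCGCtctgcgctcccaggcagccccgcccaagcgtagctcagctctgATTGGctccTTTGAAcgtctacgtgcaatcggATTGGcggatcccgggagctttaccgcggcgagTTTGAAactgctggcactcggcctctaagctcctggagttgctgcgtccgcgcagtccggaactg
Pcna (chr2:132253131-132253430, minus strand): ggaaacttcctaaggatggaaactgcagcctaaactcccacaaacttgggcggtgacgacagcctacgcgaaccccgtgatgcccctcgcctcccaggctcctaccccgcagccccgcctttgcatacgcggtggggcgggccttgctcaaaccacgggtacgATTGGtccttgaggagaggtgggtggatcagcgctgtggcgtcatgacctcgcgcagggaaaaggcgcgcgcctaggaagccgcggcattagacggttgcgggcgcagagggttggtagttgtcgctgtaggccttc
Mki67 held 2 CHR and 3 CCAAT matches, Top2a 4 and 6, and Cdk1 2 and 3 with 1 E2F match, whereas Pcna held 1 CCAAT match and none of the other motifs. Among all 32851 promoters of the table, 19.2% held a CHR match, 37.4% a CCAAT match and 2.26% an E2F match. Of the other members, Ccnd3, Cdkn1a, Cdkn1b and Cdk4 were matched in the table, and none of their promoters held a CHR match. Ccnd1, Ccnd2 and Cdkn1c were not matched.

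The 2 groups were far apart in depth and in marker levels. The deposited libraries held 26034378 UMIs in 2844 cells (R1) and 29732969 UMIs in 2994 cells (R2), and 12 barcodes occurred in both. High-Ttr cells had a median of 8433 and 7687 UMIs and low-Ttr cells of 3202 and 3836, so that the low-Ttr groups summed to 190188 and 91115 UMIs. The deepest low-Ttr cell of R2 alone had 13692 UMIs. The median mitochondrial share was 2.58% and 3.35% in low-Ttr cells and 1.30% and 1.26% in high-Ttr cells. No kept cell lay between the limits. The highest low-Ttr cell had 2.66% in R1 and 0.755% in R2, and the lowest high-Ttr cell 5.18% and 5.14%. Together, 8 RPE markers reached 398 and 447 UMIs per 10000 in high-Ttr cells but 35.1 and 23.5 in low-Ttr cells, and 7 of the 8 were detected there. Best1 was too rare to be informative, with 7 and 10 UMIs in all high-Ttr cells and 0 in low-Ttr cells. Conversely, a list of 6 genes (Pax6, Dkk3, Aldoc, Trpm1, Gpnmb and Id3) was higher in low-Ttr cells. Together they reached 117 and 92.5 per 10000 there against 5.44 and 3.34 in high-Ttr cells. The authors had reported these genes as raised, and Rpe65, Rdh5, Lrat and Rlbp1 as lowered, in a small cluster with lowered Ttr in the same libraries. Both differences were thus known beforehand and are no independent evidence on the groups. The low-Ttr group was mixed. In R1 it comprised 45 Pax6-marked, 3 fibroblast-marked, 2 microglia- or macrophage-marked and 8 unmarked cells, and in R2 11, 2, 1 and 5. A marked cell carried at least 3 genes of a list, and for a Pax6-marked cell Pax6 had to be 1 of them. Unmarked cells could therefore carry other genes of that list. The same rule marked 59 and 26 high-Ttr cells as Pax6-marked, with a median of 9917 and 9088.5 UMIs, and left 2532 of 2613 and 2787 of 2828 unmarked. None of 8 rod genes had a UMI in any low-Ttr cell. Genes of Müller glia, a retinal cell type, were not used to mark cells. Of these, Aqp4 and Slc1a3 had 2 and 2 UMIs in low-Ttr cells of R1 and 4 and 8 in R2. All high-Ttr cells had 0 and 11 in R1 and 2 and 9 in R2. Gfap and Kcnj10 had 0 UMIs in low-Ttr cells of both mice.

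Mki67 was absent from both groups and Top2a all but absent. Mki67 (ENSMUSG00000031004; GRCm38 chr7:135689784-135716361, minus strand) had 0 UMIs in all 2844 deposited cells of R1 and all 2994 of R2, including cells that were later filtered out. A count of 0 allowed up to 0.105% and 0.1002% of cells with a UMI. Top2a (ENSMUSG00000020914; chr11:98992943-99024189, minus strand) had 0 UMIs in R1 and 1 UMI in R2, in a high-Ttr cell. In the much smaller low-Ttr groups, 0 of 58 and 0 of 19 cells allowed shares of up to 5.17% and 15.8% for either gene. These limits are for cells with a UMI of the gene, not for cells that cycle or express it. Neither gene passed the filter on low counts, so neither was tested.

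The other 8 members were detected in both mice, and their order of level differed between the groups. Levels are UMIs of a gene per 10000 UMIs of all genes, not scaled to length because a molecule is counted once at its 3' end. In high-Ttr cells the order was Ccnd1, Ccnd3, Cdk4, Ccnd2, Pcna, Cdkn1b, Cdkn1c and Cdkn1a, and the ranges of the mice overlapped for Cdk4 with Ccnd2 and for Pcna with Cdkn1b. In low-Ttr cells it was Ccnd2, Ccnd3, Cdkn1c, Cdk4, Cdkn1a, Pcna, Ccnd1 and Cdkn1b. There the ranges overlapped for Ccnd3 with Cdkn1c, Cdkn1c with Cdk4, Cdkn1a with Pcna and Pcna with Ccnd1. Ccnd1 thus led in high-Ttr cells and stood next to last in low-Ttr cells, where Ccnd2 led.

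**Figure D1:**
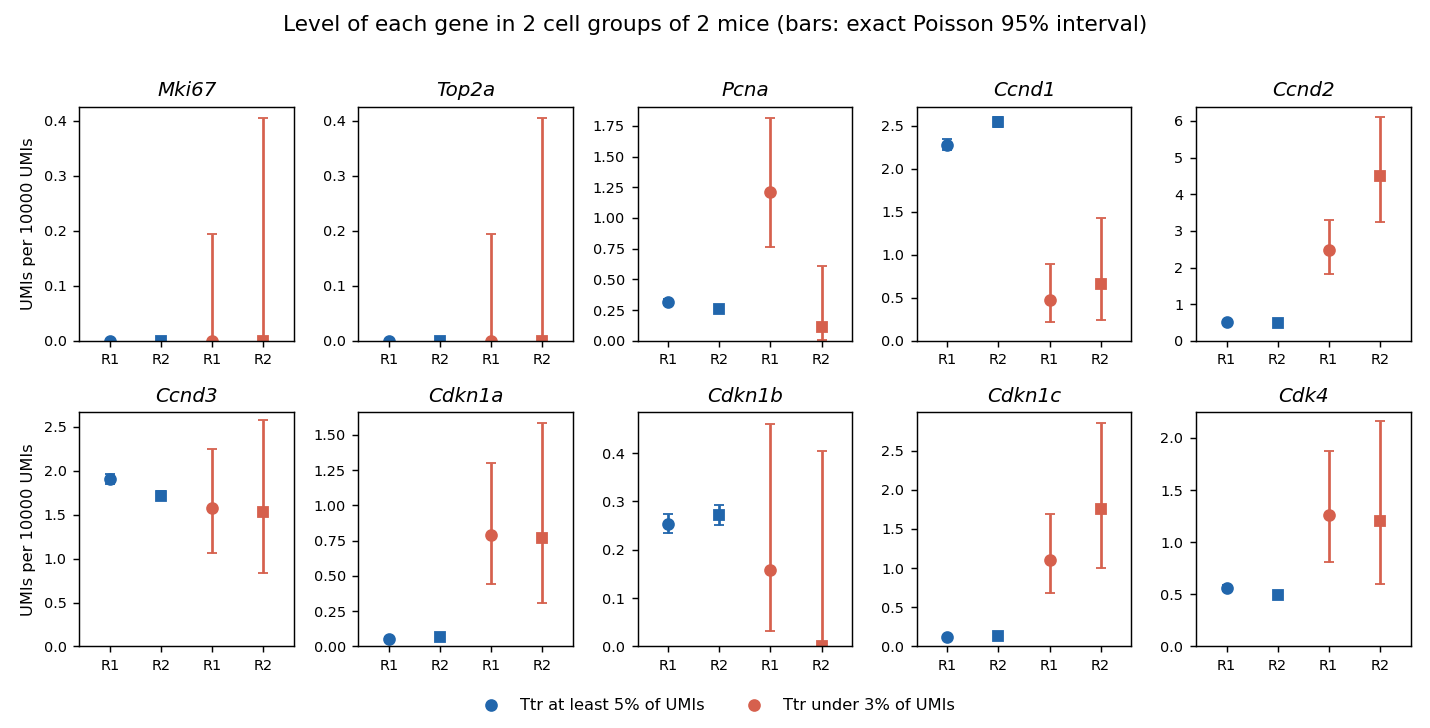
UMIs per 10000 UMIs of each gene (vertical axis, a scale of its own in each panel) in high-Ttr cells (blue) and low-Ttr cells (red) of mice R1 (circles) and R2 (squares), with exact Poisson 95% intervals that cover counting error only. Ccnd1 sits at 2.28 and 2.54 in high-Ttr cells and at 0.473 and 0.659 in low-Ttr cells, whereas Ccnd2, Cdkn1a and Cdkn1c sit higher in low-Ttr cells of both mice.

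Groups were compared on the 4 summed libraries with edgeR's quasi-likelihood test, with the mouse as a block. The SE given with a fold change is its absolute log2 value divided by the square root of edgeR's F statistic. It is a model value and does not measure the spread between the mice. Of the 8 members tested, 4 passed an adjusted p of 0.05, against a background of 10.9% of 11494 genes. Ccnd2, Cdkn1a and Cdkn1c were higher in low-Ttr cells, as were 4.18% of all genes, and Ccnd1 was lower, as were 6.69%. The median log2 fold change was 0.45 over the 8 members and -0.38 over all genes tested. The scaling mattered for all values. Without TMM factors, which put low-Ttr libraries down relative to high-Ttr ones, the median of all genes was 0.38 in place of -0.38, and 74.1% rather than 38.4% of the called genes were higher in low-Ttr cells. The same 4 members passed the test on both scalings with their direction kept.

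Among the D-type cyclins, Ccnd1 (cyclin D1, ENSMUSG00000070348, which partners Cdk4 on growth signals) was the member with the most UMIs in high-Ttr cells. It reached 2.28 UMIs per 10000 in R1 and 2.54 in R2, and 0.473 (9 UMIs) and 0.659 (6 UMIs) in low-Ttr cells. The levels did not overlap between groups and were 4.82-fold (95% interval 2.54 to 10.5) and 3.86-fold (1.77 to 10.5) lower in low-Ttr cells. The log2 fold change was -2.89 ± 0.45 (SE, 2 mice; edgeR adjusted p = 9.32e-09), or -2.51 relative to the median gene. At a depth matched to 2000 UMIs per cell, Ccnd1 was found in 34.3% and 34.0% of high-Ttr cells and in 6.90% (4 of 58) and 5.26% (1 of 19) of low-Ttr cells. Unthinned, these shares were 69.5% and 66.1% against 13.8% and 15.8%. Low-Ttr cells held Ccnd1 at 20.7% and 25.9% of its level in high-Ttr cells, while the summed RPE markers stood at 8.83% and 5.26% and Ttr at 6.48% and 3.13%. Ttr defined the groups and the marker difference was known beforehand, so neither is an independent yardstick for Ccnd1. In R2, 4 of the 6 UMIs lay in the single microglia-marked cell.

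Ccnd2 (cyclin D2, ENSMUSG00000000184) had the opposite pattern. Its level was 0.522 and 0.486 per 10000 in high-Ttr cells and 2.47 (47 UMIs) and 4.50 (41 UMIs) in low-Ttr cells. The ratio of low- to high-Ttr cells was 4.73 (3.46 to 6.33) in R1 and 9.26 (6.61 to 12.6) in R2, with a log2 fold change of 1.94 ± 0.38 (SE, 2 mice; edgeR adjusted p = 1.04e-05). At matched depth Ccnd2 was found in 7.35% and 6.93% of high-Ttr cells and in 32.8% (19 of 58) and 52.6% (10 of 19) of low-Ttr cells. Ccnd2 was spread over the low-Ttr group, with a UMI in 26 of 58 and 11 of 19 cells before thinning. Pax6-marked cells held 33 of the 47 UMIs in R1 and 32 of the 41 in R2, of which 15 lay in 1 cell. Their level was 4.19 times (2.87 to 5.92) and 10.2 times (6.94 to 14.5) that of high-Ttr cells. Tested on Pax6-marked low-Ttr cells alone, the log2 fold change was 1.92 with an edgeR adjusted p of 0.00139. Reads on Ccnd2 and on its antisense genes Gm43126 and 9330179D12Rik are separable only by strand.

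Ccnd3 (cyclin D3, ENSMUSG00000034165) was nearly as frequent in high-Ttr cells as Ccnd1 and did not pass the test. It stood at 1.91 and 1.71 per 10000 in high-Ttr cells and at 1.58 (30 UMIs) and 1.54 (14 UMIs) in low-Ttr cells. The within-mouse ratios of 0.826 (0.557 to 1.18) and 0.896 (0.489 to 1.505) had intervals that included 1. In R2, however, 9 of the 14 UMIs lay in 1 low-Ttr cell, so that the ratio there leaned on that cell. The log2 fold change was -0.99 ± 0.39 (SE, 2 mice; edgeR adjusted p = 0.0859). Without the mouse as a block the adjusted p was 0.0102, and without TMM factors the log2 fold change was -0.21 with an adjusted p of 0.807. At matched depth Ccnd3 was found in 30.2% and 26.1% of high-Ttr cells and in 25.9% and 15.8% of low-Ttr cells.

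Cdk4 (ENSMUSG00000006728), the kinase that D-type cyclins activate, was detected in both groups. It stood at 0.557 and 0.490 per 10000 in high-Ttr cells and at 1.26 (24 UMIs) and 1.21 (11 UMIs) in low-Ttr cells. Within each mouse the ratio was above 1, at 2.27 (1.45 to 3.39) and 2.47 (1.23 to 4.43), intervals that cover counting error only. The log2 fold change was 0.47 ± 0.48 (SE, 2 mice; edgeR adjusted p = 0.699) with TMM factors and 1.24 (adjusted p = 0.0573) without them, so that Cdk4 did not pass on either scaling. The depth-matched share was 9.72% and 8.56% in high-Ttr cells and 19.0% (11 of 58) and 15.8% (3 of 19) in low-Ttr cells. Of 15 genes of G1 entry, 10 were tested, and Ccnd1 and Ccnd2 were the genes called. The median log2 fold change of the 10 was 0.05, against -0.38 over all genes tested, of which 10.9% were called.

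**Figure D2:**
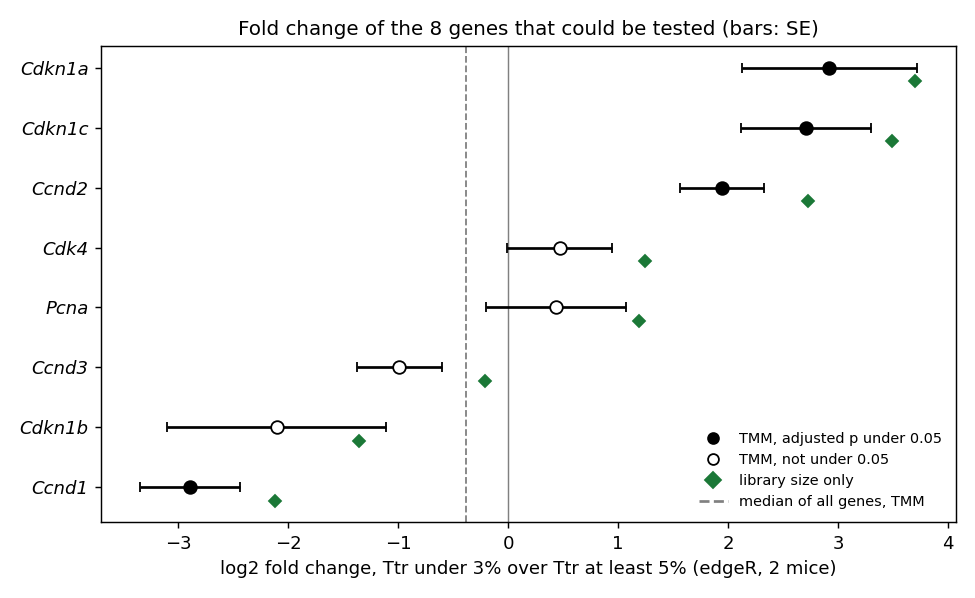
Log2 fold change of the 8 tested genes (low-Ttr over high-Ttr cells, horizontal axis) from edgeR on 2 mice, with circles and SE bars for the TMM-scaled values (filled where the adjusted p is under 0.05) and green diamonds for values scaled to library size only. Ccnd2, Cdkn1a and Cdkn1c lie at 1.94 to 2.92 and Ccnd1 at -2.89, and each diamond lies to the right of its circle. The dashed line marks the median of all genes at -0.38. The SE is a model value and not the spread between the mice.

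Among the inhibitors, Cdkn1a (p21, ENSMUSG00000023067, induced by p53 and by stress) was the scarcest detected member in high-Ttr cells. It had 129 UMIs in R1 and 188 in R2, or 0.0540 and 0.0697 per 10000. Low-Ttr cells had 15 and 7 UMIs, or 0.789 and 0.768 per 10000, and the groups did not overlap. The ratio was 14.6 (7.94 to 24.98) in R1 and 11.03 (4.37 to 23.2) in R2, with a log2 fold change of 2.92 ± 0.80 (SE, 2 mice; edgeR adjusted p = 0.00356). At matched depth 0.727% and 0.955% of high-Ttr cells and 15.5% (9 of 58) and 15.8% (3 of 19) of low-Ttr cells had a UMI. The carriers differed between the mice. In R1, 11 of the 15 UMIs lay in 9 Pax6-marked cells, whereas in R2 1 of the 7 lay in a Pax6-marked cell, 3 in the microglia-marked cell and 3 in 1 unmarked cell. Fibroblast-, microglia- and endothelial-marked cells were also left out of the low-Ttr group only, with the high-Ttr group unchanged. The log2 fold change was then 2.62 (edgeR adjusted p = 0.0522). With Pax6-marked low-Ttr cells alone it was 2.24 (adjusted p = 0.326), so that the call did not hold in either setting. The level of these Pax6-marked cells was 13.5 times (6.58 to 24.97) that of high-Ttr cells in R1. In R2 it was 2.22 times (0.0559 to 12.5), an interval that included 1. With 11 UMIs in R1 and 1 in R2, the loss of the call does not show that Cdkn1a was unchanged in Pax6-marked cells.

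Some genes known to respond to tissue dissociation also differed in this contrast. Of 15 such genes, 7 were higher, 1 was lower and 7 were not called in low-Ttr cells, against 10.9% of all genes called, with a median log2 fold change of 1.97. In R2 single low-Ttr cells held much of this, with 79 of the 90 UMIs of Junb, 18 of the 27 of Dusp1 and all 15 of Fos each in 1 cell. In R1 the highest cell held 8 of 17, 20 of 42 and 9 of 25. Of the 7 higher genes, Nr4a1 and Socs3 had 8 and 17 UMIs in all high-Ttr cells of R1. These genes passed the low-count filter only with the help of the low-Ttr libraries, so their calls add no support. Jund, an AP-1 subunit, stood at 2.26 and 2.09 per 10000 in low-Ttr cells and 0.331 and 0.324 in high-Ttr cells (log2 fold change 1.97 ± 0.44, SE, 2 mice; edgeR adjusted p = 0.000210). Hspa1a, which encodes a heat-shock chaperone, was the gene that was lower (log2 fold change -3.17 ± 0.50; edgeR adjusted p = 7.61e-09), and Jun had a log2 fold change of 0.16 (adjusted p = 0.909). The part of dissociation and of the higher mitochondrial share in the Cdkn1a difference was not tested. Of 14 p53 target genes 12 were tested, and Cdkn1a was the only one called, near the 10.9% of all genes called. The median was -0.64 over the 12 and -0.38 over all genes. Mdm2, the p53 ubiquitin ligase, stood at 0.250 and 0.222 per 10000 in high-Ttr and 0.315 and 0.549 in low-Ttr cells (adjusted p = 0.995). Ccng1 (cyclin G1; adjusted p = 0.711) and the apoptosis effector gene Bax (adjusted p = 0.782) were likewise not called.

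Cdkn1c (p57, ENSMUSG00000037664, an imprinted gene linked to quiescence) was higher in low-Ttr cells, where fibroblast-marked cells held much of it. It stood at 0.120 and 0.128 per 10000 in high-Ttr cells and at 1.10 (21 UMIs) and 1.76 (16 UMIs) in low-Ttr cells, with ratios of 9.22 (5.62 to 14.4) and 13.7 (7.76 to 22.6). The log2 fold change was 2.71 ± 0.59 (SE, 2 mice; edgeR adjusted p = 0.000113). At matched depth 2.07% and 2.02% of high-Ttr cells and 6.90% (4 of 58) and 15.8% (3 of 19) of low-Ttr cells had a UMI of it. In R1, however, UMIs of Cdkn1c occurred in 5 of 58 low-Ttr cells, and the 3 fibroblast-marked cells held 15 of the 21. In R2 the 2 fibroblast-marked cells held 7 of the 16, with 6 in Pax6-marked and 3 in unmarked cells. Fibroblast-marked cells thus carried 13.8 and 12.1 UMIs of Cdkn1c per 10000, against 0.398 and 0.928 in Pax6-marked cells. The latter were 3.32 times (1.21 to 7.32) and 7.26 times (2.65 to 16.0) the level of high-Ttr cells, with 6 UMIs in 2 cells of each mouse. With Pax6-marked low-Ttr cells alone the edgeR adjusted p was 0.495. With fibroblast-, microglia- and endothelial-marked cells left out of the low-Ttr group only, the log2 fold change was 1.63 (adjusted p = 0.254). The call thus did not hold in either.

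**Figure D3:**
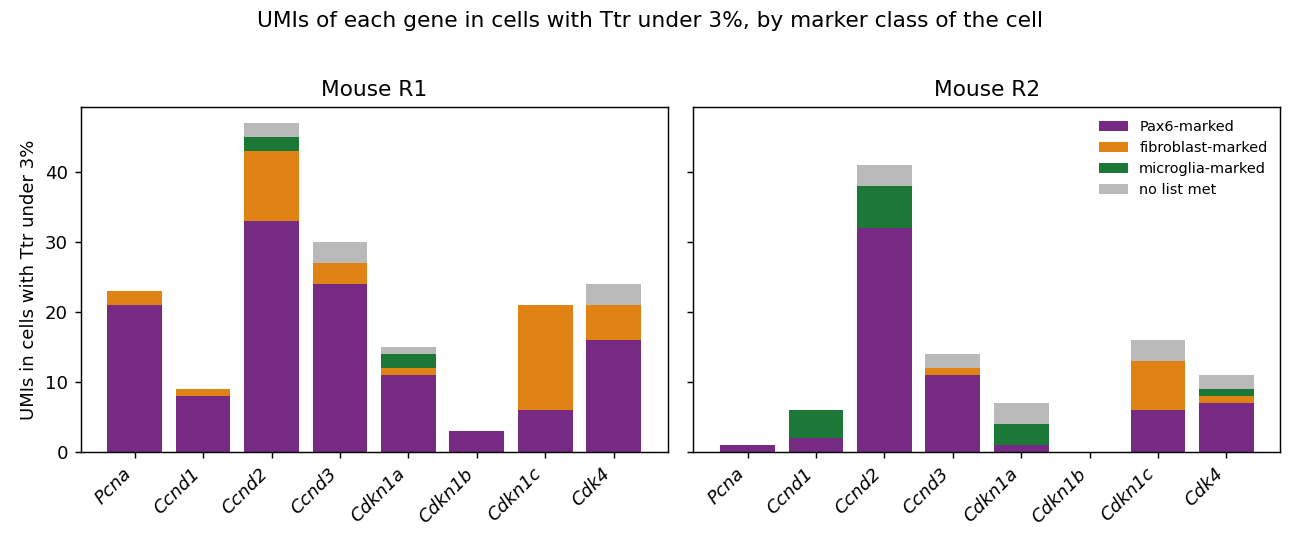
UMIs (vertical axis) of the 8 detected genes in low-Ttr cells of R1 (58 cells, left) and R2 (19 cells, right), stacked by the marker class of the cell that held them. Cdkn1c is shared between fibroblast-marked (15 and 7 UMIs) and Pax6-marked cells (6 and 6), whereas most Ccnd2 UMIs (33 and 32) lie in Pax6-marked cells.

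Cdkn1b (p27, ENSMUSG00000003031, which binds cyclin E- and cyclin D-kinase complexes) was the leading inhibitor of the Cip/Kip family in high-Ttr cells. It stood at 0.253 and 0.271 per 10000 there, with a depth-matched share of 4.02% and 5.09%. Low-Ttr cells had 3 UMIs in R1 (0.158 per 10000) and 0 in R2, where the count of 0 allowed up to 0.329 per 10000, a level above that of the high-Ttr cells. The log2 fold change was -2.10 ± 0.99 (SE, 2 mice; edgeR adjusted p = 0.197) and did not pass. Without the mouse as a block the adjusted p was 0.0406. Among 20 arrest and quiescence genes, 19 were tested, 3 were higher and 1 lower in low-Ttr cells, with a median of -0.19. Over all genes tested, 4.18% were called higher and 6.69% lower, with a median of -0.38. Besides Cdkn1a and Cdkn1c, the call was for Cdkn2c (p18, an inhibitor of Cdk4 and Cdk6), with 21 and 9 UMIs in low-Ttr cells (1.10 and 0.988 per 10000) and 18 and 17 UMIs in all high-Ttr cells (0.00754 and 0.00630). Its log2 fold change was 6.45 ± 1.03 (SE, 2 mice; edgeR adjusted p = 2.12e-08). Cdkn2c passed the low-count filter only through the low-Ttr libraries, where it was high, so the test adds no support beyond these counts. The lower gene was E2f4, an E2F member that acts with pocket proteins in quiescent cells (log2 fold change -1.78 ± 0.61; adjusted p = 0.0366). Its level was 0.675 per 10000 in high-Ttr and 0.158 (3 UMIs) in low-Ttr cells of R1, but 0.695 and 0.659 (6 UMIs) in R2, where the levels were close. By contrast, Tob1, an antiproliferative gene, and Rbbp4, a histone-binding gene, had adjusted p of 0.881 and 0.680.

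Pcna (ENSMUSG00000027342) was not called, and its values differed between the mice. High-Ttr cells had 0.313 and 0.258 per 10000. Low-Ttr cells had 1.21 (23 UMIs) in R1 and 0.110 (1 UMI) in R2, which gave ratios of 3.86 (2.43 to 5.84) and 0.425 (0.0108 to 2.38), the latter with an interval that included 1. The log2 fold change was 0.44 ± 0.63 (SE, 2 mice; edgeR adjusted p = 0.793), with 1.34 in R1 alone and -2.11 in R2 alone. In R1, 21 of the 23 UMIs lay in 13 Pax6-marked cells, and 7 lay in 1 cell. At matched depth, 17.2% of the R1 low-Ttr cells and 0 of 19 R2 low-Ttr cells had a UMI, the latter allowing up to 15.8%, against 5.93% and 4.92% of high-Ttr cells.

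The list of S-phase genes, Pcna among them, gave no call. Of 23 genes, 12 were tested, and 0 passed the edgeR test, 0 had an unadjusted p under 0.05 and 0 were called by DESeq2. Their median log2 fold change was 0.73, against -0.38 over all genes. Summed over the list, low-Ttr cells had 76 of 190188 UMIs in R1 and 21 of 91115 in R2. High-Ttr cells had 3402 of 23875313 and 3765 of 26981703, a smaller share in both mice when scaled to library size only. With so few UMIs in low-Ttr cells, a gene not called is not shown to be unchanged. Dut, which encodes the dUTPase that keeps uracil out of DNA, led the list with 0.616 and 0.659 per 10000 in high-Ttr cells and 1.21 (23 UMIs) and 0.659 (6 UMIs) in low-Ttr cells (adjusted p = 0.916). Rrm1, the large ribonucleotide reductase subunit, had 6 and 1 UMIs in low-Ttr cells (adjusted p = 0.810). Rrm2, the subunit that is limiting in S phase, had 0 UMIs in low-Ttr cells of both mice and 7 and 2 UMIs in all high-Ttr cells.

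**Figure D4:**
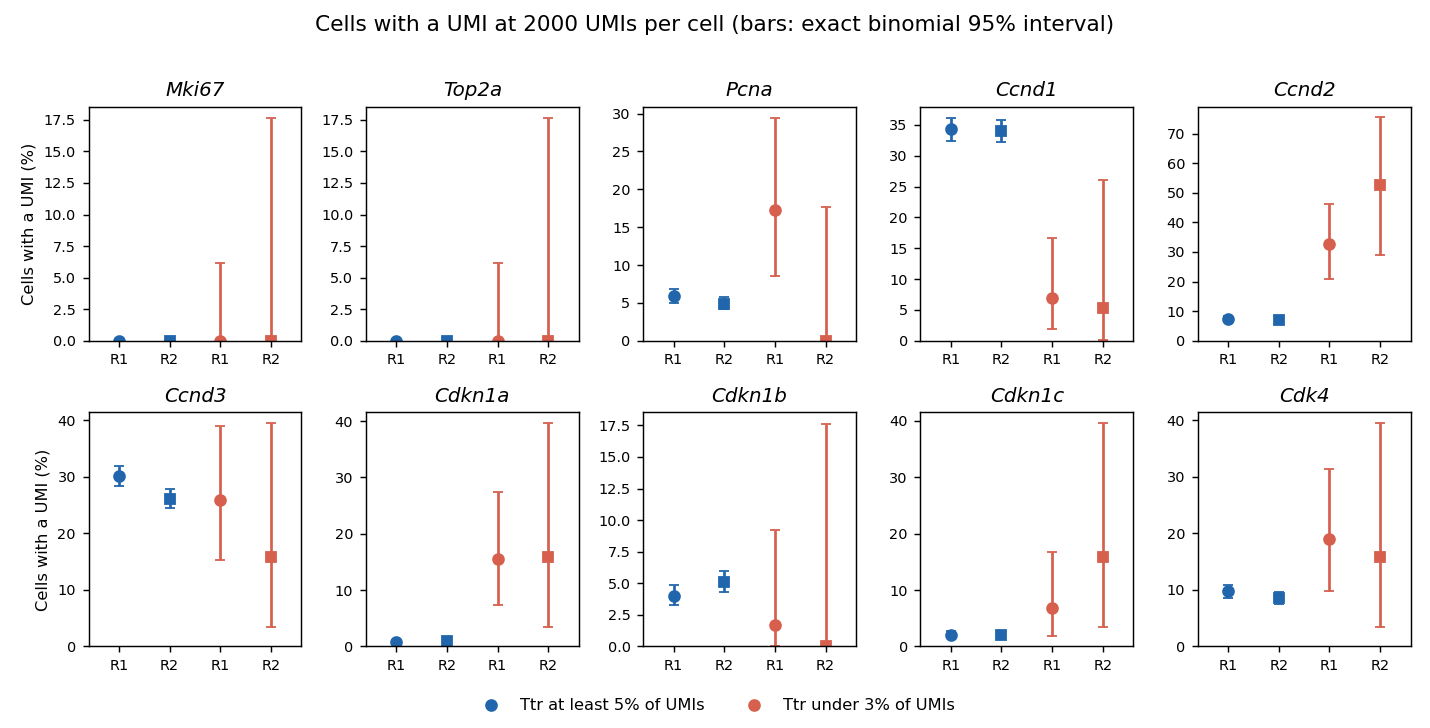
Share of cells with at least 1 UMI of each gene (vertical axis, percent, a scale of its own in each panel) after every cell was thinned to 2000 UMIs, for high-Ttr (blue) and low-Ttr cells (red) of R1 (circles) and R2 (squares), with exact binomial 95% intervals that cover counting error only. Ccnd2 was found in 32.8% and 52.6% of low-Ttr cells against 7.35% and 6.93% of high-Ttr cells, and Ccnd1 in 6.90% and 5.26% against 34.3% and 34.0%.

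Within high-Ttr cells no detected member was confined to shallow or deep cells. When cells were split by UMIs into 3 classes of equal size and thinned to 2000 UMIs, the Ccnd1 share was 34.8%, 32.1% and 35.9% from the shallowest to the deepest class in R1, and 28.4%, 35.6% and 38.0% in R2. Ccnd2 was found in 5.97%, 7.12% and 8.96% in R1 and 6.36%, 4.99% and 9.44% in R2. The shallowest and deepest classes of R2 had Ccnd1 intervals that did not overlap, 25.6 to 31.4% and 34.9 to 41.1%, whereas those of R1 overlapped. Pcna stood at 5.17% in the shallowest and 6.66% in the deepest class of R1 and at 6.26% and 3.82% in R2. Cdkn1a rose with depth in R1, at 0.230% (2 of 871 cells), 0.689% and 1.26% (11 of 871), with overlapping intervals. In R2 it stood at 0.954%, 0.955% and 0.954%. Members were paired in the thinned high-Ttr cells, with 21 pairs in R1, where Cdkn1a was too rare, and 28 pairs in R2. Pearson's r between log2-transformed counts ranged from -0.04 to 0.05, a range from which nothing is read in counts this sparse. Pcna was found in 14.8% of R1 cells with Cdkn1c (8 of 54) and 5.74% of cells without it, and in R2 in 7.02% (4 of 57) and 4.87%. In R2, Cdk4 was found in 22.2% of cells with Cdkn1a (6 of 27) and 8.43% of cells without it. The genes most alike Ccnd1 across cells, among 1981 compared, were mt-Nd5 (r = 0.07 and 0.07), Gm42418 (0.06 and 0.07) and Timp3 (0.07 and 0.05). Those most alike Ccnd3 were Col4a3, Spr and Eif3i, with r of 0.04 in both mice. Such values lie near 0 in sparse counts of 2613 and 2828 cells that share a library.

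Cells that carried several G2/M genes were sought with a list of 25. At least 3 genes were found in 6 of 2613 high-Ttr cells of R1 (0.230%, exact binomial 95% interval 0.0843 to 0.499%) and in 5 of 2828 of R2 (0.177%, 0.0574 to 0.412%). No low-Ttr cell carried 3, and the whole low-Ttr group held 1 UMI of the list in R1, of the spindle motor gene Kif11, and none in R2. However, 0 of 58 and 0 of 19 low-Ttr cells allowed shares of up to 5.17% and 15.8%. These limits lie above the high-Ttr shares, so no difference between the groups is shown. Of the 11 cells, 9 had exactly 3 genes, and all 9 of these included Cdk1. They had 8430 to 31245 UMIs, 10.4 to 13.3% Ttr and 3 to 5 UMIs of the list. After thinning to 2000 UMIs, 1 cell in each mouse still had 3 genes.

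Cdk1, which encodes the kinase that drives entry into mitosis, made up most of the list's UMIs. It supplied 864 of 1165 G2/M UMIs in high-Ttr cells of R1 (74.2%) and 959 of 1310 in R2 (73.2%). Before thinning it was found in 21.9% and 17.6% of high-Ttr cells, and at matched depth in 6.54% and 5.48%. The level was 0.362 and 0.355 per 10000 in high-Ttr cells. Low-Ttr cells had 0 UMIs (edgeR adjusted p = 0.000940). Against a floor of 3 counts per mouse, Cdk1 was at least 2.29-fold lower there in R1 and at least 1.08-fold lower in R2. The upper limit of the exact interval for low-Ttr cells was 0.194 per 10000 in R1 and 0.405 in R2. In R2 this limit lay above the high-Ttr level, so on the exact interval no difference is shown for that mouse. Depth-matched shares by depth class were 6.08%, 6.66% and 6.89% in R1 and 5.62%, 5.20% and 5.62% in R2. Bub1b, a spindle checkpoint kinase gene, and Cdc20, an activator of the anaphase-promoting complex, followed with 243 and 147 UMIs in all, 0 of them in low-Ttr cells (adjusted p = 0.546 and 0.688). Of the 25 genes, 3 were tested and Cdk1 was the one called, while 6.69% of all genes tested were called lower. These 3 genes passed the low-count filter only through the high-Ttr libraries. The call for Cdk1 thus adds no support beyond the counts and the bounds given for each mouse, of which that of R2 depended on the floor used. Without Cdk1 in the list, a choice made after the data were seen, 1 cell in each mouse carried at least 3 genes.

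These 2 cells, both high-Ttr, were the ones with more than 3 genes of the full list. The R1 cell was kept under each filter on cells, whereas the R2 cell was removed by the doublet score when up to 10% mitochondrial UMIs were allowed, which left 0 of 2850 R2 high-Ttr cells with at least 4 genes. The R1 cell had 4211 UMIs, 9.59% Ttr and 5 G2/M genes, Cdk1 (2 UMIs), Ccnb1 (1), Ccnb2 (2), Hmmr (2) and Nuf2 (1). It also had 6 S-phase genes with 15 UMIs, among them Rrm2 (6), Pcna (4) and Tk1 (2), and it held 6 of the 7 Rrm2 UMIs of the group. All RPE markers but Best1 were found in it, Rgr with 65 and Rdh5 with 20 UMIs, and no microglia gene. Of the members it had 4 UMIs each of Cdkn1a, Ccnd3 and Pcna, 1 each of Ccnd1 and Cdk4, and none of the others. The R2 cell had 14376 UMIs, 5.40% Ttr and 7 G2/M genes with 19 UMIs, led by Birc5 (7), Cenpe (3) and Ube2c (3), without Cdk1. It was microglia-marked, with C1qa (14 UMIs), C1qb (10), C1qc (23), Tyrobp (11) and Fcer1g (16), and it also held RPE transcripts such as Rgr (314). It carried 12 of the 188 Cdkn1a UMIs of high-Ttr cells in R2, 3 of Ccnd2, 1 each of Ccnd1, Ccnd3, Cdkn1b and Pcna, and both Rrm2 UMIs of the group. Neither cell had a UMI of Mki67 or Top2a.

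**Figure D5:**
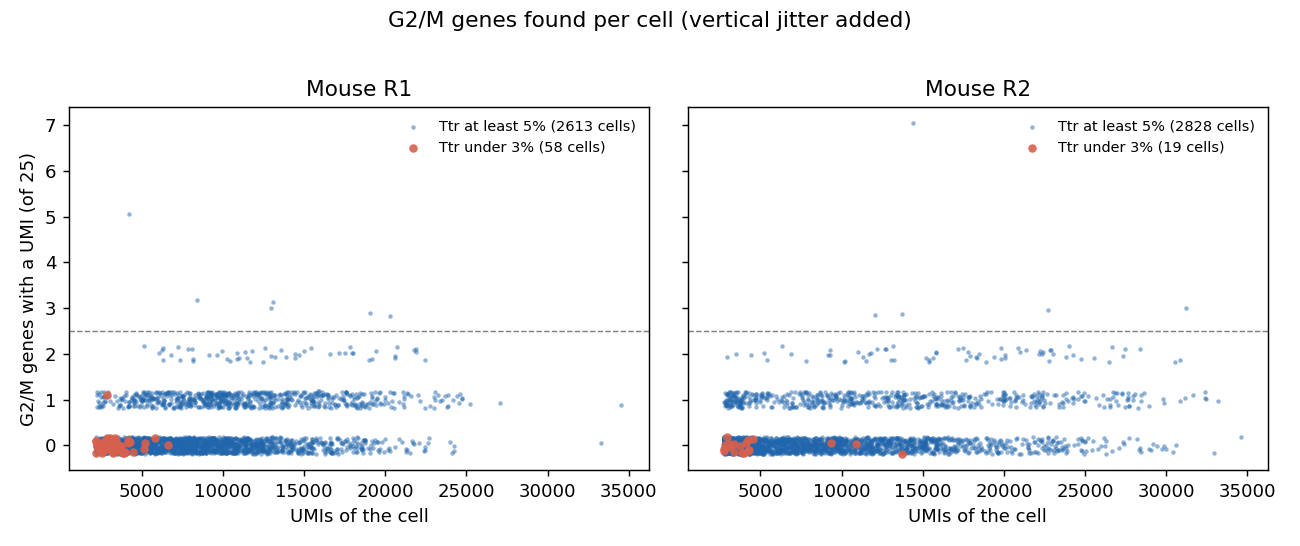
Number of G2/M genes with a UMI (vertical axis, of 25, jittered) against UMIs of the cell (horizontal axis) in R1 (left) and R2 (right), for high-Ttr (blue) and low-Ttr cells (red). The dashed line separates cells with at least 3 genes, 6 in R1 and 5 in R2, all of them high-Ttr, and the cells with 5 and 7 genes are the 2 described in the text. Low-Ttr cells were too few to show shares as small as those of high-Ttr cells.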

How the data were processed

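Droplet-based single-cell RNA sequencing was performed by the authors on sorted RPE cells of 2 mice. Per the labels, bcl2fastq 2.20.0.422 and Cell Ranger 1.2.0 were used with GRCm38. The authors deposited raw UMI counts per gene and cell for each mouse, without normalization or filters beyond cell calling. The submitters' labels name a v3 and the methods a v2 kit, while barcodes were 14 bases long. Deposited counts of R1 and R2 differed beyond sampling noise (chi-square 19.6 per degree of freedom over 13384 genes). The 10 genes, the groups and all gene lists were chosen with earlier results of these data known.

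Cells with at least 500 genes and at most 5% mitochondrial UMIs were kept. A neighbour score against simulated doublets removed the top 4% (111 and 119 cells). It marked 7 of 15 simulated low-with-high doublets in R1 and 0 of 15 in R2. Of simulated high-with-high doublets it marked 4 of 15 in R1 and 3 of 15 in R2. Doublets of both kinds may therefore remain, also among the high-Ttr cells with several G2/M genes. Cells were thinned to 2000 UMIs without replacement for shares. Intervals were exact (95%), and a count of 0 was bounded at 3 counts; both cover counting error only. Counts were summed per mouse and group and tested with edgeR 4.0.16 (quasi-likelihood, TMM, low-count filter, Benjamini-Hochberg, 0.05) with the mouse as a block, since both groups came from the same animal. DESeq2 1.42.0 was an alternative. The test was checked on simulated data, where the smaller changes simulated were mostly missed, so that a gene not called is not shown to be unchanged. Ambient RNA was not removed before testing. Correlations used log2-transformed counts of thinned cells, with a pseudocount. Where alike genes were sought, this was done for members in at least 10% of high-Ttr cells. Genes named are all members, from each list the 3 with the most UMIs and, where 6 or fewer were called, every called gene; for alike genes the 3 highest of the smaller r of the mice. Rrm2, Kif11, Junb, Dusp1, Fos, the pairs of members found together and the genes of the 2 single cells were named after their values were seen. Nr4a1 and Socs3 were also named in that way. Counts of Ccnd1, Ccnd3 and Cdk4 could share reads with the overlapping genes on the other strand, and Cdkn1c with Gm44732. Promoters came from RefSeq (GRCm38.p6). Python 3.11.15 and R 4.3.3 were used.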

Additional observations from a re-analysis of the deposited data

How the results depend on the processing

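Over 13 alternatives that gave a test, Ccnd1 and Ccnd2 passed in all, with log2 fold changes of -3.55 to -2.12 and 1.83 to 2.73. Cdkn1a and Cdkn1c each passed in 11 of 13, with adjusted p up to 0.326 and 0.495. With Pax6-marked low-Ttr cells alone, or with fibroblast-, microglia- and endothelial-marked cells left out of the low-Ttr group only, 2 members were called instead of 4. The number of genes called went from 1249 to 774 with Pax6-marked cells alone and to 2311 without the mouse as a replicate block, which also called Ccnd3 and Cdkn1b; the cause was not tested. DESeq2 called 932 of 9265 genes, with 54.0% higher in low-Ttr cells. With 1 mouse left out no test was possible, and Pcna then had a log2 fold change of -2.11 or 1.34. At matched depth 4 members (Ccnd2, Cdkn1a, Cdkn1c, Cdk4) had a higher share in low-Ttr cells of both mice, as they did at 3000 UMIs; at 4000 UMIs, where 8 low-Ttr cells were left in each mouse, and without thinning, 3 did. The 11 cells with at least 3 G2/M genes became 129 with at least 2 genes and 2 with at least 4. They became 2 without Cdk1 and 2 after thinning, both choices made after the data were seen, and 5 to 6 with 1 mouse left out. Few low-Ttr cells and 0 to 47 UMIs per member limit every value for that group.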

Other observations

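Outside the kept cells, 1 further cell of R1 carried at least 3 G2/M genes. It was a high-Ttr cell with 31111 UMIs and 10.7% Ttr that the doublet score had removed, with Cdk1 (3 UMIs), Ccna2 (1) and Birc5 (1), 4 S-phase genes led by Dut (10) and no UMI of Mki67, Top2a, Pcna or Cdkn1a. Unmarked cells held 115 of the 129 Cdkn1a UMIs of R1 high-Ttr cells and 169 of the 188 of R2, and 17 of the latter lay in 1 cell. In R1, 1 microglia-marked high-Ttr cell held 10 Cdkn1a UMIs.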
